A study of Mus musculus with 8 samples.

Results

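The imprinted locus that holds Kcnk9, Peg13, Trappc9 and Chrac1 was described by the positions of CTCF and of Smc3, a subunit of cohesin, in mouse embryonic stem cells. The 4 genes were taken by name from the RefSeq table of the GRCm38.p6 assembly (build mm10), out of 49997 genes with a position. They lie on chromosome 15, and the window ran from 100 kb before the first to 100 kb after the last of them, at chr15:72401873-73194075 (792.2 kb). The locus was chosen from results of these same peak lists, so its counts and folds are given as a description, without a test. Of the peaks deposited for each library, the window held 20 of 82227 for CTCF in C59 cells, 25 of 98759 for CTCF in wild-type (WT) cells, 7 of 25734 for Smc3 in C59 cells and 10 of 47281 for Smc3 in WT cells.

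Both lines are JM8.N4 embryonic stem cells, grown on gelatin without feeders in medium with serum and LIF. C59 is 1 clone in which both copies of the Ctcf gene encode FLAG-Halo-CTCF and both copies of Rad21 encode Rad21-SNAPf-V5; WT cells carry neither tag. Chromatin immunoprecipitation and sequencing (ChIP-seq) with antibodies to CTCF and to Smc3 gave 1 library for each protein and line, so differences between the lines could not be set against a spread between replicates. The peak lists merge the parental copies of the chromosome, and which of them was bound was not analysed here.

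CTCF recognises DNA through zinc fingers and marks insulators, while cohesin, a ring-shaped complex, extrudes chromatin loops until it meets bound CTCF. Imprinted genes are transcribed from 1 parental copy, often under a differentially methylated region. Some of these regions are bound by CTCF only when unmethylated. Peg13 is a noncoding RNA expressed from the paternal copy whose start lies in a differentially methylated region, inside an intron of Trappc9. Its neighbours Kcnk9 and Trappc9 are expressed mainly from the maternal copy in brain. In human cells the region at PEG13 is known to bind CTCF and cohesin. Kcnk9 encodes TASK3, an acid-sensitive potassium leak channel, Trappc9 a subunit of a TRAPP complex of vesicle traffic, and Chrac1 a histone-fold protein of a chromatin remodelling complex.

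Kcnk9 spans chr15:72501873-72548614, and Trappc9 begins 41.0 kb beyond it and spans chr15:72589620-73061238 (472 kb). Peg13, at chr15:72805602-72810324, lies inside the Trappc9 interval. Chrac1, at chr15:73090412-73094075, stands 29.2 kb past Trappc9. The table gives no strand, so gene ends are called lower and upper by coordinate. Of the 12 genes that touch the window, Ago2 (chr15:73101625-73184947), which encodes an Argonaute protein of RNA interference, fills most of the border after Chrac1.

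CTCF and Smc3 stood together in 4 places of the locus in both lines. These were Kcnk9, the upper end of Peg13, the last part of Trappc9 with the gap after it, and the far end of Ago2. Fold enrichment is the authors' value for a peak, the pileup of fragments at its summit over the local background, and it describes strength within a list. In C59 the CTCF folds of the window ran from 4.64 to 47.8 with a median of 13.5, and in WT from 4.37 to 45.1 with a median of 9.50. For Smc3 the folds ran from 4.45 to 19.2 in C59 with a median of 7.2, and in WT from 4.07 to 27.2 with a median of 8.63.

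**Figure D1:**
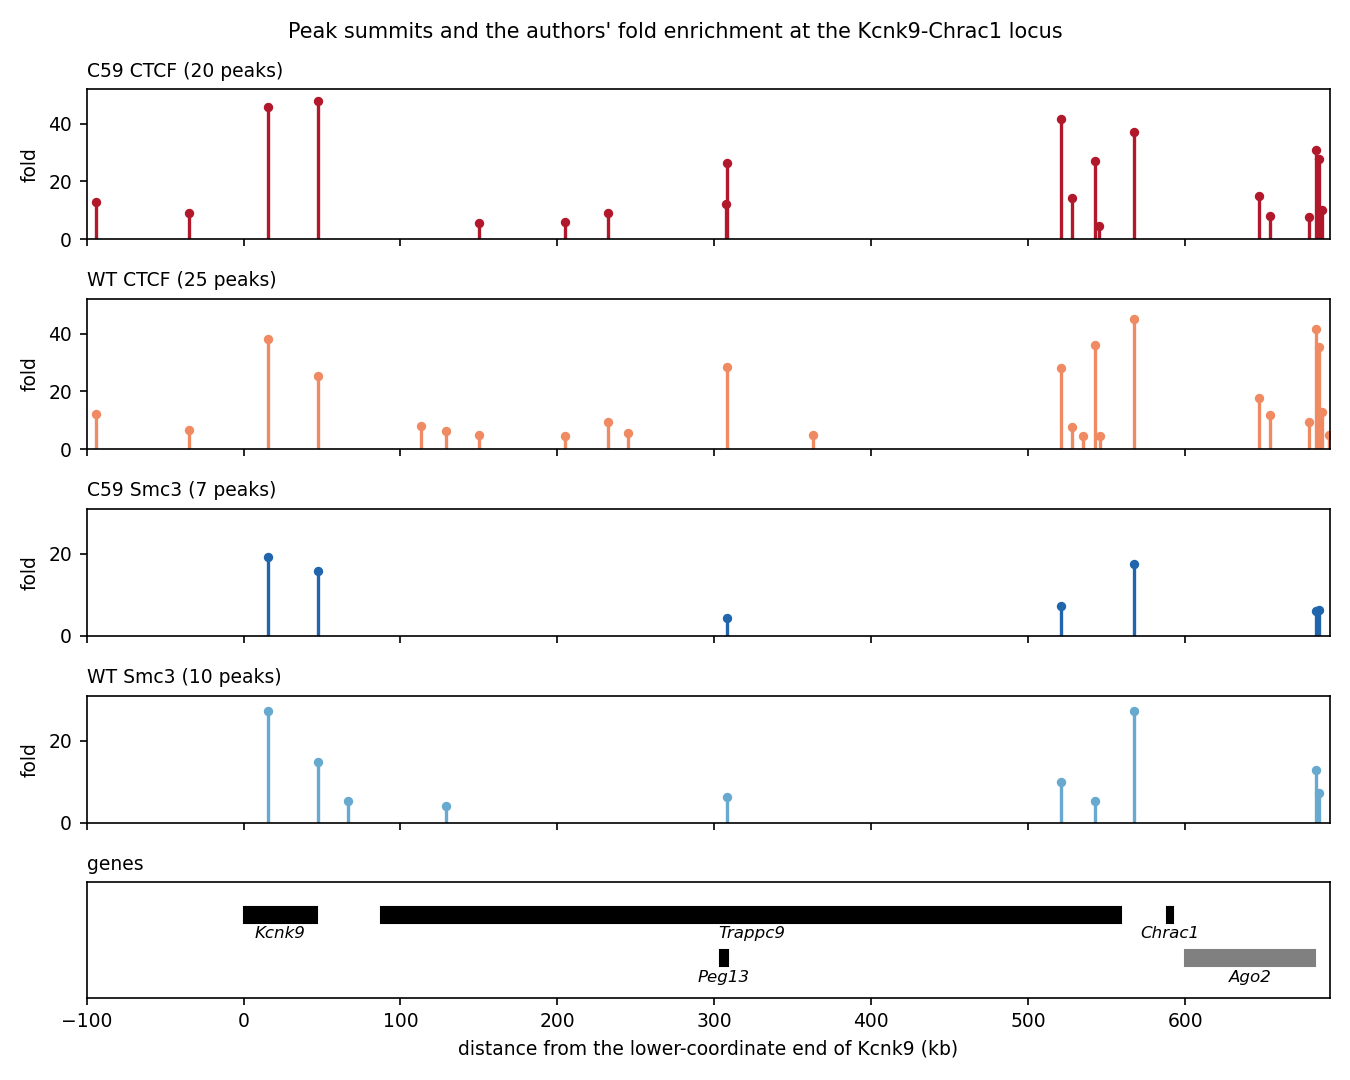
Fold enrichment (vertical axis) of every peak summit in the window, by distance from the lower end of Kcnk9 in kb, for each of the 4 peak lists, with the genes below. The tall CTCF stems at Kcnk9, Peg13, late Trappc9 and the far end of Ago2 have Smc3 stems beneath them, except at 543 kb in C59. The stretch between Peg13 and late Trappc9 is almost bare.

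The Kcnk9 gene carried a strong CTCF site in its body and another just past its upper end, each with Smc3 in both lines. The site in the body, 15.3 kb from the lower end, was a CTCF peak at chr15:72516847-72517625 in C59 with a fold of 45.6 and at chr15:72516802-72517703 in WT with a fold of 38.2. Its Smc3 folds were 19.2 in C59 and 27.2 in WT. In the Smc3 lists 99.8% of C59 peaks and 99.9% of WT peaks had a lower fold, so this was among the strongest Smc3 sites of either list.

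The site past the upper end of Kcnk9 had a CTCF peak at chr15:72549022-72549969 in C59 with a fold of 47.8, above 98.7% of that list. In WT the peak was at chr15:72549217-72549949 and its fold was 25.3, above 83.6% of the list. Smc3 folds there were 15.9 in C59 and 14.8 in WT. All 4 summits lay outside the gene, 947 to 974 bp from its end, which is just within the 1 kb that counts here as a gene end.

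At Peg13 both proteins stood on the upper end of the gene in both lines, with CTCF in the upper part of its lists and Smc3 low in the C59 list and near the middle of the WT list. The CTCF fold was 26.2 in C59 and 28.5 in WT, above 80.2% and 88.3% of their lists. The Smc3 fold was 4.45 in C59 and 6.30 in WT, above 23.6% and 55.6% of theirs. CTCF summits lay inside the gene 201 bp from its end in C59 and 157 bp in WT, and the Smc3 summits 115 bp and 193 bp from it.

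The CTCF signal at Peg13 reached further into the gene. The C59 list divided it into 2 peaks 243 bp apart, one at chr15:72809739-72810819 on the gene end and one inside the gene at chr15:72808911-72809495 with a fold of 12.1. The WT list gave 1 peak of 1934 bp over the same ground, at chr15:72808876-72810809, and 0.658% of the peaks of that list were wider. The inner C59 summit lay 1118 bp from the end, just beyond the 1 kb limit, and no Smc3 peak of either line overlapped that inner peak. Since the WT peak has 1 summit, a WT fold for the inner part is not given.

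**Figure D2:**
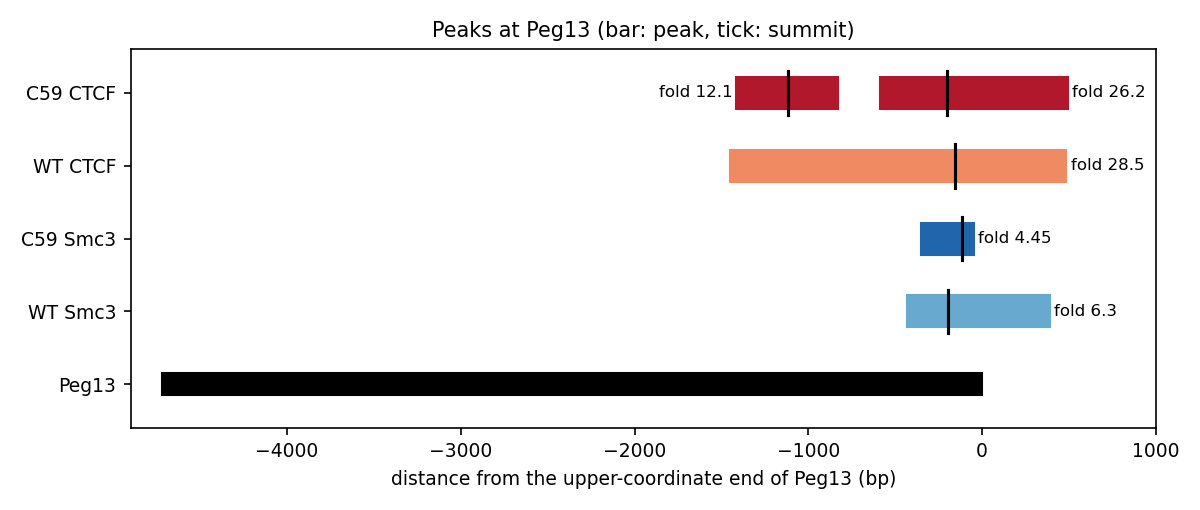
Peaks at Peg13 drawn by distance in bp from the upper end of the gene, with a bar for each peak, a tick for its summit and the fold beside it. C59 CTCF is in 2 bars (12.1 and 26.2) where WT CTCF is in 1 (28.5), and the Smc3 bars (4.45 in C59, 6.30 in WT) lie on the part nearest the gene end.

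Trappc9, the longest of the genes, had no peak at either end. The nearest summit to its upper end lay outside the gene, 7.82 kb away for C59 CTCF and 7.79 kb away for WT CTCF. This site in the gap before Chrac1 was the strongest WT CTCF site of the window, with a CTCF fold of 37.1 in C59 (chr15:73068603-73069427) and 45.1 in WT (chr15:73068544-73069423). Smc3 folds there were 17.5 in C59 and 27.2 in WT, above 99.6% and 99.9% of the lists.

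Inside Trappc9, Peg13 included, were 9 CTCF summits in C59 and 13 in WT, with folds of 4.64 to 41.6 and 4.37 to 36.1. Smc3 summits inside it numbered 2 in C59 and 4 in WT. Away from Peg13, 2 of the CTCF sites were strong, and both lay in the last 40 kb before the upper end. The first, 38.2 kb from that end, had CTCF folds of 41.6 in C59 (chr15:73022800-73023537) and 28.2 in WT (chr15:73022726-73023537). It carried Smc3 at folds of 7.2 in C59 and 9.96 in WT.

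The other strong site inside Trappc9, 16.5 kb from the upper end, was the strong CTCF site with the least Smc3. Its CTCF fold was 27.1 in C59 (chr15:73044381-73045126) and 36.1 in WT (chr15:73044269-73045299). Smc3 had no peak there in C59, and in WT it had a fold of 5.15 on a pileup of 26. A missing peak means only that the signal did not pass the authors' threshold, and the level of protein there is not known.

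The rest of Trappc9 held CTCF sites of lower fold and a long bare stretch. Of the sites of both lines, the one highest in C59 was at 528 kb from the lower end of Kcnk9. Its fold was 14.3 in C59, above 58.1% of the list, and 7.70 in WT, above 42.2%. The others had folds of 5.48 in C59 and 4.94 in WT at 150 kb, 5.91 and 4.56 at 205 kb, 9.04 and 9.31 at 232 kb, and 4.64 and 4.37 at 545 kb. Between Peg13 and the site 38.2 kb before the upper end, the C59 list had no CTCF summit for 213 kb, a spacing that 80 of the 3318 spacings on chromosome 15 reached. In WT a single weak peak (fold 4.94) broke that stretch, and the longest spacing was 158 kb, which 124 of 4040 reached.

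Chrac1 carried no peak of either protein in either line, neither inside nor within 10 kb of its ends. The nearest summits were those in the gap after Trappc9, 21.4 kb from its lower end in all 4 lists. Beyond Chrac1, the body of Ago2 had 3 CTCF sites without Smc3, with folds of 7.59 to 15.0 in C59 and 9.50 to 17.5 in WT. Just past the upper end of Ago2 stood a pair of strong sites with both proteins. The one 492 bp from that end in WT had CTCF folds of 30.8 in C59 and 41.5 in WT, and Smc3 folds of 5.97 and 12.8. Its neighbour had CTCF folds of 27.6 in C59 and 35.5 in WT, and Smc3 folds of 6.36 and 7.30. In the border before Kcnk9 were 2 CTCF sites of both lines (folds 12.7 and 9.04 in C59, 12.3 and 6.73 in WT), with no Smc3.

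By the 1 kb rule, Kcnk9 and Peg13 had CTCF and Smc3 at an end in C59 and in WT, and Trappc9 and Chrac1 had neither, so that 2 of 4 genes counted in each list. Over 49943 genes on the chromosomes, 23.2% had one for C59 CTCF, 27.0% for WT CTCF, 8.04% for C59 Smc3 and 14.7% for WT Smc3. Since the locus was chosen with these peaks in view, nothing is read from that excess. The window edges, lower then upper, had these nearest peaks. Just inside them were CTCF peaks with folds of 12.7 and 10.1 in C59 and 12.3 and 4.94 in WT, and outside were folds of 6.96 and 4.85 in C59 and 7.03 and 4.34 in WT. For Smc3 the outermost peaks inside had folds of 19.2 and 6.36 in C59 and 27.2 and 7.30 in WT, and the next outside 12.4 and 4.99 in C59 and 4.46 and 6.14 in WT. The lower inside Smc3 peaks were those of the Kcnk9 body, 115 kb from the edge. The outside Smc3 peaks lay 196 and 117 kb away in C59 and 38.9 and 26.8 kb away in WT, at different sites. The CTCF peaks nearest the upper edge also differed between the lines.

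Peaks of the window were no denser than elsewhere. CTCF had 2.52 peaks per 100 kb in C59 (95% Poisson interval 1.54 to 3.90), against 3.35 over the autosomes, and 3.16 in WT (2.04 to 4.66), against 4.02. Smc3 had 0.884 per 100 kb in C59 (0.355 to 1.82), against 1.06, and 1.26 in WT (0.605 to 2.32), against 1.94. Each value lay below the autosomal one, and each interval, for borders of 100 kb, covers it. CTCF densities were 1.88 in C59 and 2.46 in WT with borders at 50 kb, and 2.72 and 3.12 with borders at 200 kb. All intervals here allow for counting alone.

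Every C59 peak of the locus overlapped a WT peak of the same protein by at least 1 bp. The WT peaks that C59 lacked had folds of at most 7.90. For CTCF, 20 of 20 C59 peaks were found in WT (exact Clopper-Pearson interval at 95%, 83.2% to 100%), beside 97.1% over the genome, and 19 of 25 WT peaks in C59, which is 76.0% (54.9% to 90.6%), beside 79.8%. For Smc3, 7 of 7 C59 peaks were found in WT (59% to 100%), beside 98.1%, and 7 of 10 WT peaks in C59, which is 70.0% (34.8% to 93.3%), beside 52.9%. Each genome-wide share lies inside the interval of the window's share. The share of WT Smc3 peaks found in C59 stood furthest from its genome-wide value, with a wide interval from 10 peaks. Summits of the lines at shared sites were a median of 17 bp apart for CTCF over 19 sites and 18 bp apart for Smc3 over 7.

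The 6 CTCF sites of WT alone had folds of 7.90, 6.08, 5.51, 4.94, 4.37 and 4.94, in order of position, and 5 of them lay inside Trappc9. None was above the WT median fold of the window. The first of them had a fold above 43.2% of the WT list and a pileup of 55, above 47.7% of it. All 12 WT CTCF peaks with a fold of at least 10 were found in C59, as were 99.8% or more of such peaks over the genome. Below 10, 7 of 13 were found, beside 61.1% over the genome. At the 7 sites with Smc3 in both lines, the Smc3 fold was higher in C59 at 1, beside 17.5% of shared Smc3 peaks over the genome. The 3 Smc3 sites of WT alone had folds of 5.19, 4.07 and 5.15. All 7 WT Smc3 peaks with a fold of at least 6 were found in C59, beside 85.4% over the genome, and 0 of 3 below 6, beside 23.1%. These bounds on fold were picked after the values were seen.

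**Figure D3:**
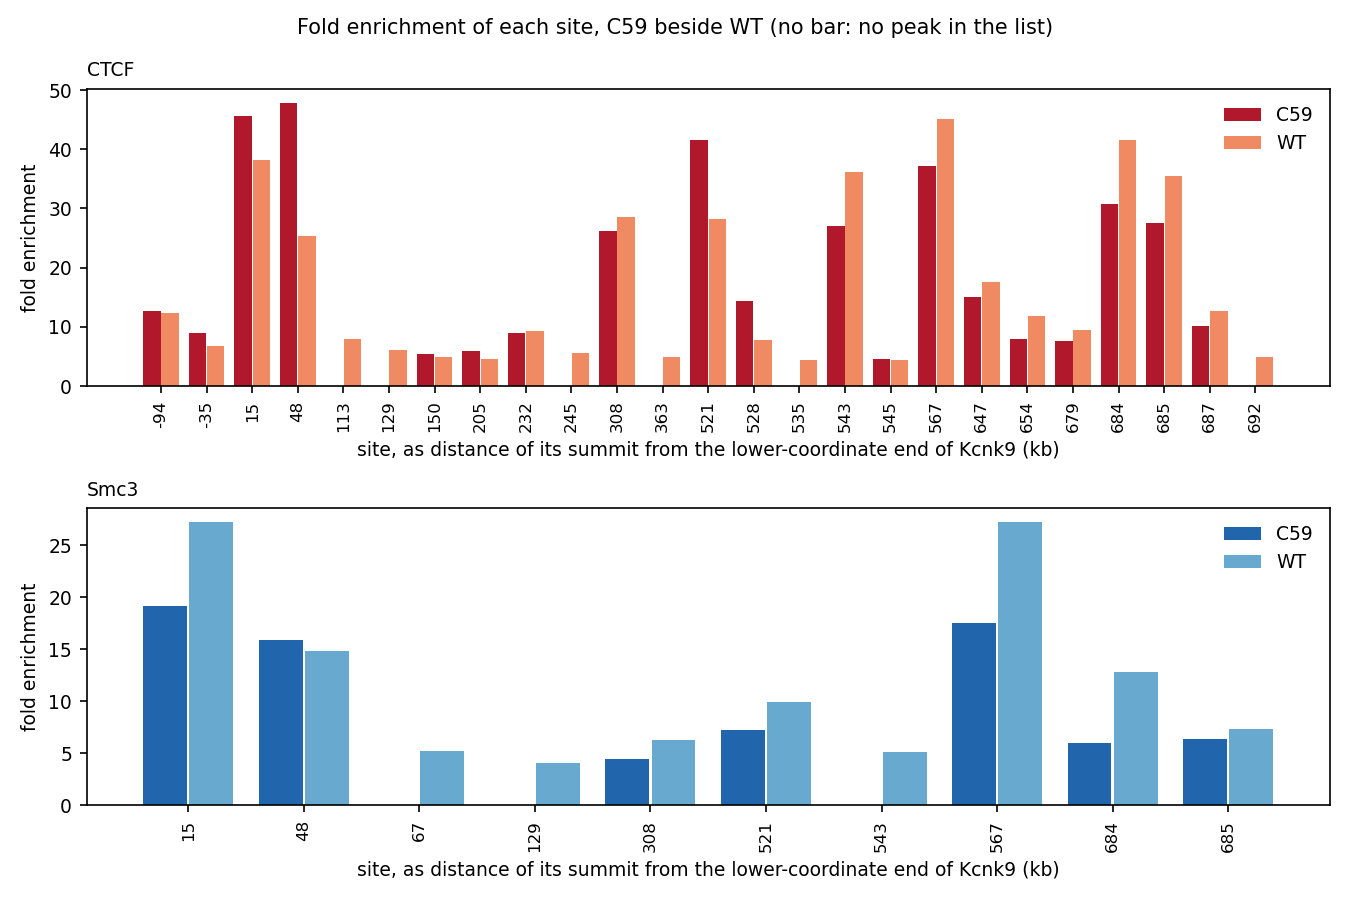
Fold enrichment of CTCF (upper panel) and Smc3 (lower panel) at each site of the window, with the C59 bar left of the WT bar and sites named by distance from the lower end of Kcnk9 in kb; at Peg13 (308 kb) the stronger C59 CTCF peak is drawn. Sites with a WT bar alone are all short, below 8 for CTCF and below 6 for Smc3, and Smc3 is taller in C59 than in WT at 1 of the 7 shared sites (17.5% over the genome).

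Smc3 of the locus lay on CTCF with 1 exception. In C59 all 7 Smc3 peaks overlapped a CTCF peak (59% to 100%), beside 97.9% over the genome, and in WT 9 of 10 did, which is 90.0% (55.5% to 99.7%), beside 95.2%. The exception was a WT peak in the gap between Kcnk9 and Trappc9 at chr15:72568511-72568886, 20.1 kb from the upper end of Kcnk9, with a fold of 5.19. It overlapped no CTCF peak of either line and had no counterpart in C59. A weak site inside Trappc9 at 129 kb had both proteins in WT (CTCF 6.08, Smc3 4.07) and neither in C59.

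In the other direction, 7 of 20 C59 CTCF peaks overlapped Smc3, which is 35.0% (15.4% to 59.2%), beside 30.0% over the genome, and 9 of 25 WT CTCF peaks, which is 36.0% (18% to 57.5%), beside 44.3%. Smc3 stood mostly on the stronger CTCF peaks, as over the genome. The bounds on CTCF fold used here were picked after the values were seen, so the split is a description. With a CTCF fold of at least 25, Smc3 stood at 7 of 8 C59 peaks and 8 of 8 WT peaks, where the genome-wide shares were 80.9% and 96.3%. With a CTCF fold from 10 to 18, Smc3 stood at 0 of 5 C59 peaks (0% to 52.2%), beside 23.3%, and at 0 of 4 WT peaks (0% to 60.2%), beside 60.0%. No peak of the window had a CTCF fold between 18 and 25, and below 10 the counts were 0 of 7 in C59 and 1 of 13 in WT, beside 1.62% and 11.1%. In each case the genome-wide share lay inside the interval of the window's share. For WT folds from 10 to 18 it was barely inside, at 60.0% against an upper limit of 60.2% from 4 peaks.

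Sites with strong CTCF differed in how much Smc3 they carried. Among sites with a CTCF fold of at least 25, the ratio of Smc3 pileup to CTCF pileup was highest at the Kcnk9 body, with 0.437 in C59 and 0.696 in WT, and at the site after Trappc9, with 0.469 and 0.612. Among all CTCF peaks with Smc3, the median ratio was 0.224 in C59 and 0.320 in WT, and both sites lay above 96.2% of C59 pairs and 94.6% of WT pairs or more. These pairs include CTCF peaks of any fold, so the ranks here are not matched for CTCF strength. Peg13 lay low, with a ratio of 0.164 in C59 and 0.215 in WT, above 21.2% and 17.0% of the pairs. It was not alone in this. The pair of sites past Ago2 also lay below the median in both lines, with 0.172 and 0.147 in C59 and 0.299 and 0.264 in WT. The site 38.2 kb before the upper end of Trappc9 had 0.169 in C59, but 0.343 in WT, above that median. The site inside Trappc9 that lacked an Smc3 peak in C59 had 0.138 in WT, above 2.50% of WT pairs. The weak site at 129 kb, with 0.645 in WT, rests on a Smc3 pileup of 20. How the authors scaled the pileups of each list is not known, so a ratio is read against the genome-wide ratios of its own line.

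**Figure D4:**
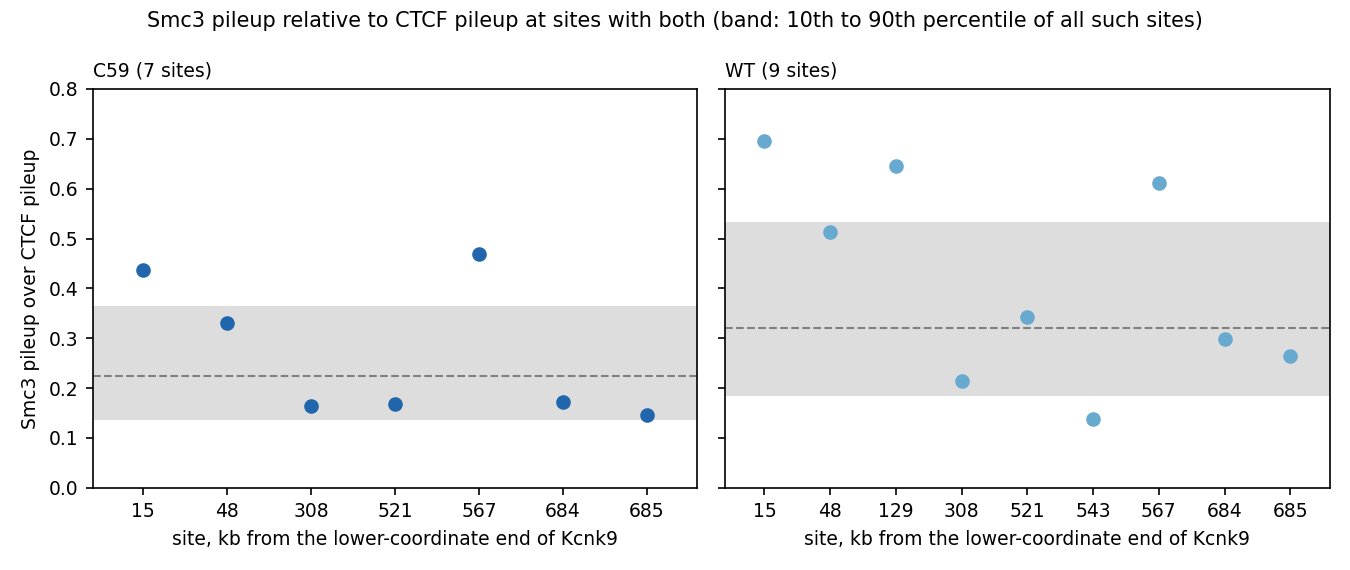
Ratio of Smc3 pileup to CTCF pileup at each site of the window with both proteins, C59 left and WT right, with the genome-wide median (dashed) and the 10th to 90th percentile range (grey). The Kcnk9 body (15 kb) and the site after Trappc9 (567 kb) lie above the range in both lines, as does the weak 129 kb site in WT. Peg13 (308 kb) and the pair past Ago2 (684 and 685 kb) lie below the median in both.

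At 3 sites the CTCF fold was much higher in C59 than in WT. The deposited pileups were close in value, though their scaling is not known, and the backgrounds, computed here from fold and pileup, differed. At the upper end of Kcnk9 the CTCF pileup was 217 in C59 and 222 in WT, while the background under it was 3.56 in C59 and 7.83 in WT, so that the fold was 1.89 times the WT value. The site 38.2 kb before the upper end of Trappc9 had pileups of 228 in C59 and 248 in WT on backgrounds of 4.50 and 7.83, and its fold ratio was 1.47. A weaker site between it and the upper end of Trappc9 had pileups of 64.4 and 67 on backgrounds of 3.56 and 7.83, and its fold ratio was 1.86 (folds 14.3 in C59 and 7.70 in WT). A background of 7.83 was above 87.3% to 89.5% of the WT list at these 3 sites. WT Smc3 peaks also stood on a raised background there, with 6.79 at the upper end of Kcnk9 and 7.63 at the first Trappc9 site. In C59 these Smc3 backgrounds were 3.57 and 4.50. The C59 over WT ratio of CTCF background was 0.455, 0.575 and 0.455 at the 3 sites, beside a genome-wide median of 0.835. The pileup ratios there were 0.979, 0.919 and 0.961, beside a genome-wide median of 0.814. They lay above 82.4%, 73.1% and 79.9% of shared pairs. Against those medians, the pileup was relatively high in C59 and the background relatively low. CTCF background was higher in C59 than in WT at the site 16.5 kb before the upper end of Trappc9 (ratio 1.23). So it was at the site after Trappc9 (1.04) and the second site past Ago2 (1.24). Their fold ratios were 0.75, 0.823 and 0.779.

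CTCF pileups in C59 stood closer to those in WT before Chrac1 than after it. Over the genome, the C59 over WT ratio of CTCF pileup at shared sites had a median of 0.814, which serves as the level to read the sites against. At the 13 shared sites up to Chrac1 the ratio ran from 0.850 to 1.26, with a median of 0.921, so all 13 lay above the genome-wide median. At the 6 shared sites beyond Chrac1 it ran from 0.592 to 0.937, with a median of 0.689, and 1 lay above it. For Smc3 the genome-wide median was 0.587. The 5 shared Smc3 sites up to Chrac1 had 0.454 to 0.699, 4 of them above that median, and the 2 at the far end of Ago2 had 0.398 and 0.523. The division at Chrac1 was drawn after the values were seen and was not tested, since neighbouring sites share their libraries.

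**Figure D5:**
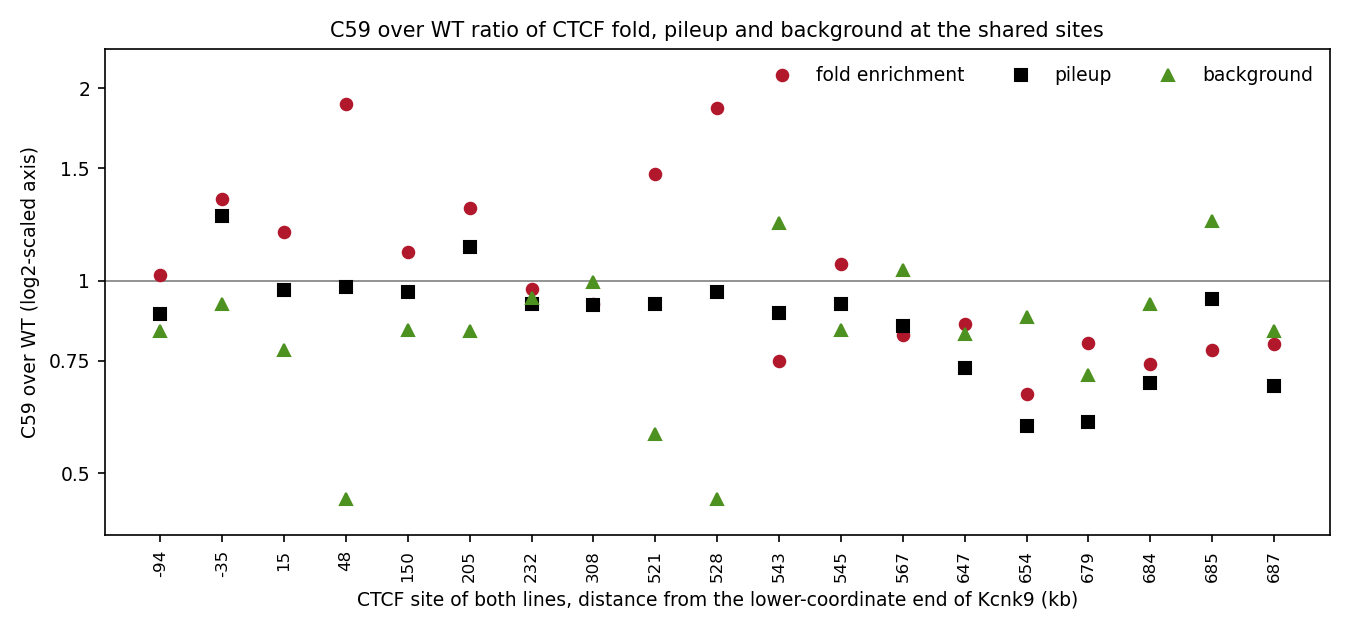
C59 over WT ratio (log2-scaled vertical axis) of CTCF fold enrichment, pileup and background at the 19 sites of both lines, by distance from the lower end of Kcnk9 in kb. The highest fold ratios, at 48, 521 and 528 kb, stand over low background ratios with pileup ratios of 0.919 to 0.979. The genome-wide median pileup ratio was 0.814, and 5 of the 6 pileup ratios from 647 kb on lie below 0.75.

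Other imprinted genes gave a setting for Peg13. Of 49 such genes on other loci, 22 carried CTCF at an end in C59 and 24 in WT, and 5 carried Smc3 there in C59 and 13 in WT. Over all genes the shares were 23.2% for C59 CTCF, 27.0% for WT CTCF, 8.04% for C59 Smc3 and 14.7% for WT Smc3, and the 5 genes with C59 Smc3 are close to that share. Both proteins in both lines, as at Peg13, were found at Gnas, which encodes a G protein subunit, Magel2, Mest, Mirg and Usp29. Mest, a paternally expressed gene, came closest to the folds of Peg13, with CTCF folds of 24.6 in C59 and 23.6 in WT and Smc3 folds of 4.68 and 5.08. Magel2 had CTCF folds of 29.9 and 30.5 with stronger Smc3 in WT (6.84 in C59 and 13.6 in WT).

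Counts for the TRAPP and Kcnk lists are given as a description. Of 14 TRAPP complex genes, Trappc9 included, 5 had CTCF at an end in C59 and 7 in WT, beside 23.2% and 27.0% of all genes. Smc3 was at an end of 2 in C59 and 4 in WT, beside 8.04% and 14.7% of all genes. Trappc3, a core subunit, had CTCF folds of 34.2 in C59 and 42.8 in WT and Smc3 folds of 10.1 and 20.7. Of 14 potassium channel genes of the Kcnk family, 3 had CTCF at an end in C59 and 4 in WT, and 2 had Smc3 in C59 and 3 in WT. For CTCF these Kcnk counts are near the all-gene shares of 23.2% in C59 and 27.0% in WT. For Smc3 the all-gene shares were 8.04% in C59 and 14.7% in WT. Kcnk9 and Kcnk15 were the 2 with both proteins in both lines, and Kcnk15 had CTCF folds of 38.3 in C59 and 34.3 in WT and Smc3 folds of 5.77 and 17.4.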

How the data were processed

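Peak lists of 4 of the 8 libraries (CTCF and Smc3 in C59 and WT) were analysed, leaving aside input and IgG. Tools listed in the submitters' processing notes, without role or order, are Bowtie 0.12.8 and MACS2 2.1.0.20140616, besides CASAVA, deepTools 2.4.1 and FastQC 0.10.1, with the build mm10. Control, threshold and duplicate filter were not given in the sources used here. Without read totals in the lists, depth is unknown. The labels' extraction protocol names a Rad21 antibody where the antibody label of each library names Smc3; the antibody label was followed.

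The lists have 10 columns and no header. Pileup signal at the summit, p-value, q-value and fold, a ratio to local background, are the values the authors deposited, with peak length and summit position in bp; C59 pileups are scaled to fractions. Adding 1 to the pileup, dividing by the fold and subtracting 1 gave the local background. Poisson p-values rebuilt with it fell within 0.1 log10 units of those deposited for 97.9% of peaks in the C59 CTCF list and 100% in the rest. The WT CTCF background had a floor (the median of its lowest decile) of 4.27 and the C59 CTCF background one of 3.56.

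A peak belonged where its summit lay, shared peaks overlapped by at least 1 bp, and a gene end meant within 1 kb. Each line has a single library per protein, hence no test was made. Overlap code was checked on shifted copies of the WT Smc3 peaks of chromosome 15. The rule on named items took the 4 genes, peaks at gene ends, the 3 strongest peaks of each list and stronger peaks of 1 line alone; genes and sites beyond it were named after their values were seen. Members, lists, alternatives and comparisons were chosen with earlier results of these data known. Python 3.11.15, numpy 2.4.6, pandas 2.3.3, scipy 1.17.1 and matplotlib 3.10.9 were used.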

Additional observations from a re-analysis of the deposited data

How the results depend on the processing

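Of 70 alternative values for 20 results, 61 stayed within the interval of the reported share or density, or within 1.5 times the reported count, and 9 moved. With each list held to its 25734 strongest peaks by p, the window had 8 CTCF peaks in C59 and 8 in WT. The share of WT peaks found in C59 was then 100% for CTCF and 100% for Smc3, the share of CTCF peaks with Smc3 was 87.5% in C59 and 87.5% in WT, and that of WT Smc3 peaks with CTCF 100%. This follows from the removal of weak peaks. With borders at 50 kb the C59 CTCF count was 13, since the 6 CTCF sites of both lines beyond Chrac1 and the first before Kcnk9 lie further out. Asking for 50% of both peaks put the share of C59 Smc3 peaks with CTCF at 57.1%, because some of the narrow Smc3 peaks cover less than 50% of the CTCF peak; with summits within 200 bp it was 100%. Gene ends within 2500 bp gave the same 2 genes as within 1 kb, and 10000 bp added Trappc9. Counts of 7 to 25 peaks leave wide intervals. No paired analysis was possible because each group has 1 library, and for the same reason none could be left out in turn.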
